A study of Mus musculus with 32 samples.

Results

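The genes described here are 95 protein-coding subunits of the mitochondrial respiratory chain, measured in mouse cardiac fibroblasts. They were chosen by symbol (Nduf, Sdh, Uqcr, Cox4 to Cox8, Atp5 and the mitochondrially encoded mt-Nd, mt-Co, mt-Cytb and mt-Atp genes) with at least 10 raw counts in at least 4 of 32 libraries. Of 99 protein-coding genes with such symbols, 95 met the count rule, out of 55414 gene IDs in the table. The 4 under it were Cox7b2, Cox8b, Cox8c and a further ID of Atp5o, and all 95 passed the filter on low counts. The nuclear genome holds 82 of them (38 in complex I, 4 in complex II, 8 in complex III, 15 in complex IV and 17 in complex V). The mitochondrial genome holds 13 (7, 1, 3 and 2 in complexes I, III, IV and V). The symbols place Ndufa4 with complex I, although it is known as a complex IV subunit, and Atp5s with complex V. Cyc1 lies outside the symbol rule, and Ndufb1-ps is left out because the annotation classes it as a long non-coding RNA.

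The respiratory chain sits in the inner mitochondrial membrane. Complexes I and II pass electrons from NADH and succinate to ubiquinone, complex III passes them to cytochrome c, and complex IV passes them to oxygen. Complexes I, III and IV pump protons, and complex V, the ATP synthase, uses the gradient to make ATP. Complex II is coded only in the nucleus, while the others join subunits from both genomes, so their assembly needs transcripts made in separate compartments. In fibroblasts, glycolysis and respiration share the supply of pyruvate, which pyruvate kinase (Pkm) makes in 1 of several isoforms.

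All cells were cardiac fibroblasts of C57BL/6J_Pkm2fl/fl mice, a genotype name for a Pkm allele with lox sites, and the study asked what an exchange of the Pkm2 for the Pkm1 isoform does to their transcriptome. Cells at passage 1, expanded in medium with 20 ng/ml bFGF and serum, received LacZ, the beta-galactosidase gene, or iCre, a Cre recombinase that cuts out sequence between lox sites, by a route the labels do not give. Without serum they were then kept in the condition called SS, or given bFGF at 20 ng/ml, IL-1b at 15 ng/ml or TGFb at 10 ng/ml for 24 h. The 2 arms, LacZ and iCre, and the 4 conditions make 8 groups of 4 libraries. Doses and time come from a protocol text that otherwise names TAK1fl/fl mice and TNFa, SS is not spelled out, and neither the animals' age nor what a replicate number stands for is given. Titles define the groups, since in the 16 LacZ libraries the tag for treatment names another group than the title. Because no label says that replicates came from separate animals or cultures, p-values measure the spread between these libraries, which may be technical.

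The libraries held 20736203 to 34995038 counts on genes. Levels are given in CPM, counts scaled to a common library size with edgeR's TMM factors, which lay between 0.8755 and 1.2002, below 1 in the 8 TGFb libraries and above 1 in the 8 SS libraries. Genes known to answer each stimulus followed the titles. Nos2 averaged 257 and 276 CPM in the IL-1b groups and at most 0.518 CPM in the others, Spry4 was highest with bFGF, and Pmepa1 was highest with TGFb. Pkm itself was lower with iCre in 16 of 16 pairs matched by condition and number, but its average log2 fold change of -0.50 ± 0.11 (SE) had an adjusted p of 0.0744 in edgeR, and 0.0038 with the replicate number as a block. Gene counts do not separate the Pkm isoforms. The LacZ TGFb library number 2 had the highest share of counts on the 82 nuclear subunit genes, 0.717% against 0.487% to 0.644% in the other 31 libraries. The numbers of increases with TGFb and IL-1b, the nuclear median with TGFb and the Cox4i1 value are also given without it. Other LacZ TGFb values include it, among them the counts per complex. On the log2 scale, the changes of Atp5g1 and Atp5g3 with TGFb in LacZ were 1.65 and 0.64, and 1.55 and 0.52 without it.

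With TGFb, most nuclear subunit transcripts rose and no mitochondrially encoded one did. In LacZ cells 62 of the 95 members rose (65.3%, against 23.4% of all 16760 genes tested) and 1 fell (22.9% of all genes fell). In iCre cells 49 rose (51.6%, against 20.2% of all genes) and 1 fell (against 18.1%). All 49 were among the 62. The median log2 fold change of the 82 nuclear members was 0.41 in LacZ and 0.29 in iCre, beside -0.06 and -0.05 over all genes tested. The calls come from edgeR's quasi-likelihood test with Benjamini-Hochberg adjustment over all genes, at an adjusted p under 0.05.

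**Figure D1:**
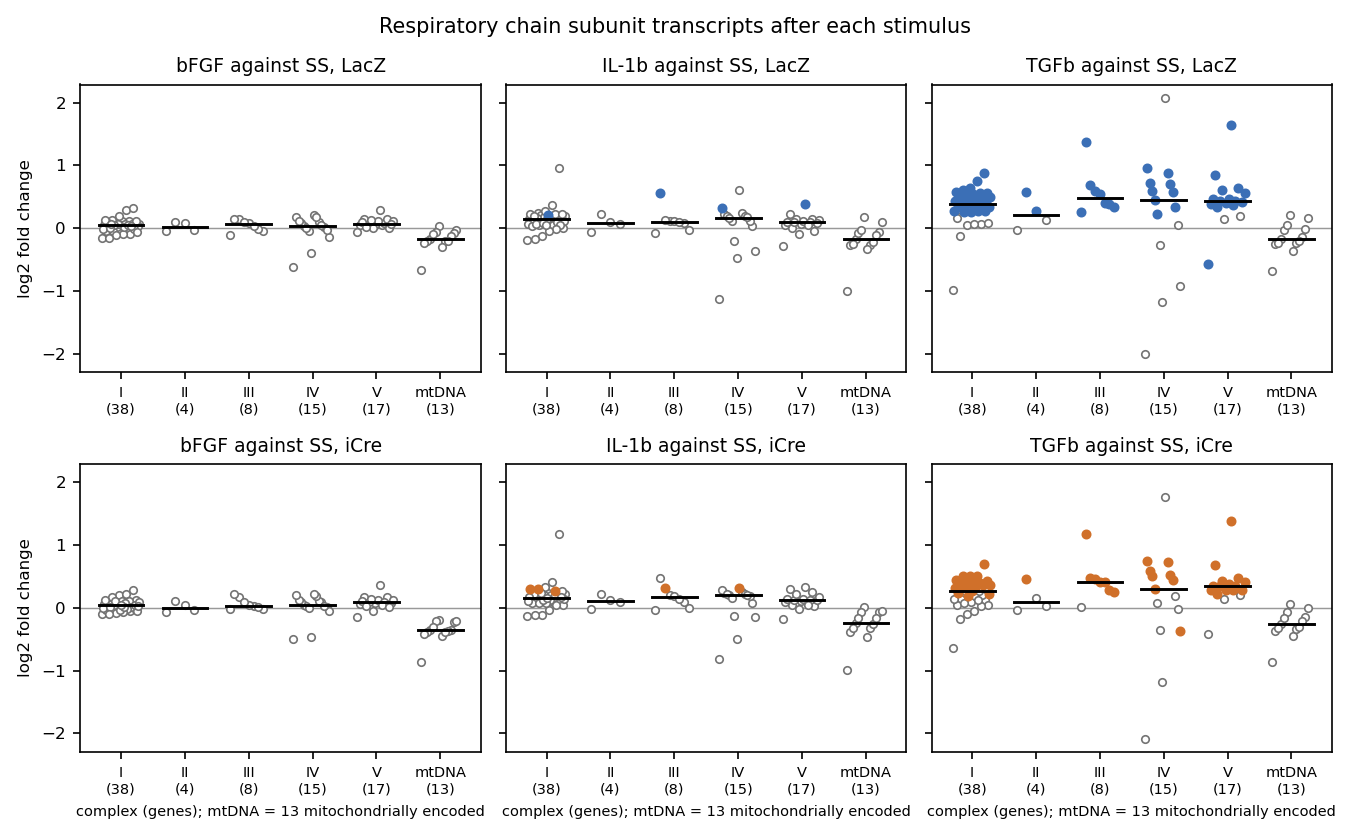
Log2 fold change of every subunit gene against SS (vertical axis), by complex for the 82 nuclear genes and for the 13 mitochondrially encoded genes (horizontal axis), after each stimulus in LacZ (upper panels) and iCre (lower panels). Filled points passed the test, open points did not, and black bars are medians. The TGFb panels hold 63 and 50 filled points, all nuclear, while the bFGF panels hold 0.

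The size of this response depended on 1 library and on the scaling. Without LacZ TGFb number 2, 53 members rose in LacZ and the nuclear median was 0.29 in place of 0.41. Within same-numbered LacZ pairs the nuclear median difference was 0.22, 0.76, 0.27 and 0.34 for numbers 1 to 4, so pair 2 was far above the rest. In iCre the corresponding values were 0.33, 0.32, 0.17 and 0.29. Scaling by total counts alone lowered the median of all genes with TGFb to -0.26 in LacZ and -0.27 in iCre. Under it, 35 members rose and 6 fell in LacZ, and 13 rose and 7 fell in iCre, while over all genes 33.5% and 29.3% of the calls were increases, against 50.6% and 52.6% with TMM factors. The distance between the members' median and that of all genes stayed near 0.43 in LacZ and 0.32 in iCre under both scalings. A change of scaling shifts all genes of a comparison by nearly the same amount, so this distance cannot test the response.

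Subunit transcripts are short, and short transcripts as a class rose with TGFb. Among other protein-coding genes that averaged 10 CPM or more and had a longest transcript of at most 1000 bases, 57.5% (142 of 247) rose in LacZ and 42.1% in iCre. For the 36 nuclear members in that class the shares were 86.1% (31) and 61.1% (22), with median log2 fold changes of 0.45 and 0.31 beside 0.38 and 0.25 in the other genes. From there up to 2000 bases, 47.9% of other genes and 79.2% of 24 members rose in LacZ, and 41.9% and 66.7% in iCre. The share of risers fell with length among the other genes, to 18.7% in LacZ above 5000 bases. How far transcript length or RNA quality takes part in the members' change was not tested.

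**Figure D2:**
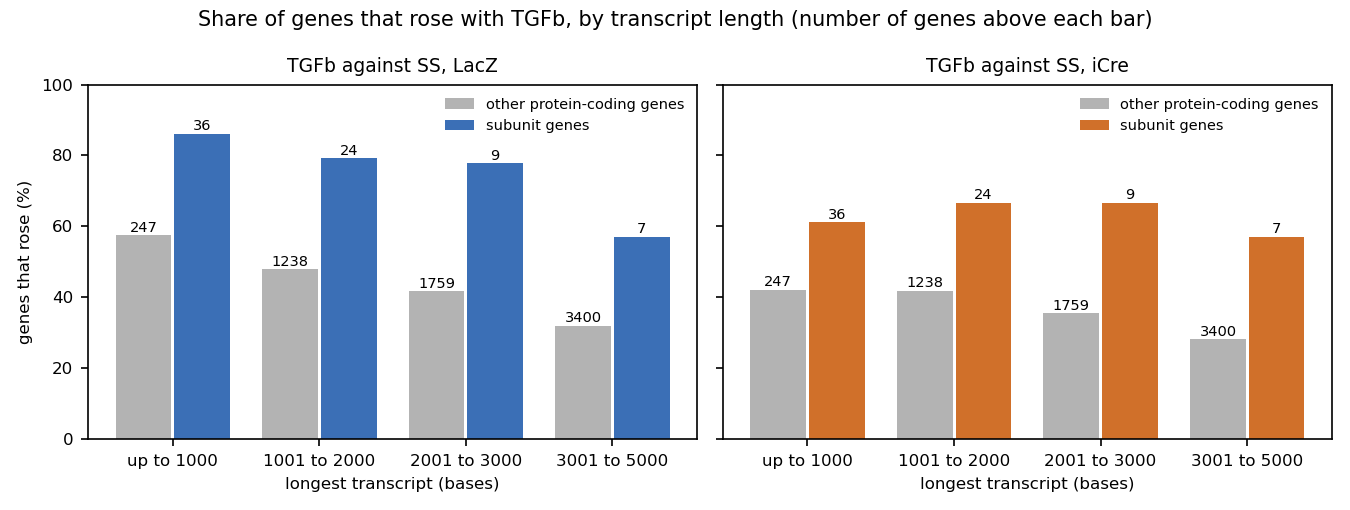
Percentage of genes that rose with TGFb (vertical axis, from 0) by length of the longest annotated transcript in bases (horizontal axis), for other protein-coding genes (grey) and nuclear subunit genes (coloured), in LacZ and iCre, for genes that averaged 10 CPM or more. The number of genes stands above each bar, and the class above 5000 bases, with 1 member, is not drawn. Member shares lie above the grey bars in each class, and in the shortest class the grey bars already reach 57.5% and 42.1%.

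In bulk RNA, fewer cells of a type and less RNA per cell cannot be told apart, and marker genes of other cells moved with TGFb too. Over all genes tested, 23.4% rose and 22.9% fell in LacZ, and 20.2% and 18.1% in iCre. Of 10 fibroblast markers, 1 rose and 6 fell in LacZ (1 and 5 in iCre). Their summed level in LacZ had medians of 49036 CPM in SS and 50492 in TGFb. In iCre the medians were 46342 and 50284 CPM, with SS libraries at 22168 to 48171 CPM. Of 10 cardiomyocyte markers 3 could be tested, and 1 fell in each arm. Their sum lay at 44.7 to 128 CPM in LacZ SS and 9.60 to 36.9 in LacZ TGFb, and at 22.7 to 92.2 and 8.21 to 10.6 CPM in iCre, with Nppa at 0 in SS and Pln at 0 in TGFb in both arms. Endothelial markers (8 genes, 6 tested) summed to 19.1 to 36.4 CPM in LacZ SS and 9.09 to 14.8 in LacZ TGFb, and to 18.2 to 24.96 and 8.80 to 12.1 CPM in iCre. Of them 1 rose and 2 fell in LacZ, and 0 rose and 2 fell in iCre. Leukocyte markers (12 genes) summed to 33.3 to 312 CPM in LacZ SS and 18.9 to 187 in LacZ TGFb, and to 32.5 to 410.4 and 17.6 to 300.5 CPM in iCre, and 1 fell in LacZ and 0 in iCre in edgeR. Mural cell markers (9 genes, 7 tested) summed to 196 to 667 CPM in LacZ SS and 243 to 470 in LacZ TGFb, and to 159 to 639 and 278 to 1163 CPM in iCre, and 1 rose and 2 fell in each arm. Their part in the members' change was not tested.

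In complex I, the entry point for electrons from NADH, 29 of 38 nuclear members rose with TGFb in LacZ and 20 in iCre. The medians of the 38 were 0.39 and 0.27. Counts per complex are of members that passed the test. Of all genes, 23.4% rose in LacZ and 20.2% in iCre, and of the other short genes above, up to 1000 bases, 57.5% and 42.1%. Ndufs8 (ENSMUSG00000059734, chromosome 19, 3908863 to 3912774 on GRCm38), a core subunit that holds iron-sulphur clusters, had the largest change among the complex I members that passed. It measured 24.96, 20.7, 24.8 and 22.3 CPM in the LacZ SS libraries and 39.4, 52.3, 42.8 and 36.7 CPM with TGFb. In iCre it measured 23.6, 25.6, 26.1 and 22.6 CPM in SS and 44.0, 40.0, 39.3 and 36.5 CPM with TGFb. The groups did not overlap in either arm. The log2 fold changes were 0.88 ± 0.10 (SE) in LacZ, with an adjusted p of 1.28e-07, and 0.71 ± 0.10 in iCre, with an adjusted p of 5.54e-06, in edgeR. The next were the accessory subunits Ndufs5 (0.75 and 0.50), Ndufab1, which is also the mitochondrial acyl carrier protein (0.64 and 0.35), and Ndufa12 (0.61 and 0.45), all of which rose in both arms.

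Not all of complex I moved. The core subunit Ndufs7 (0.17 and 0.08) and the accessory subunits Ndufb5 (0.08 and 0.05), Ndufb11 (0.06 and -0.04), Ndufa6 (0.05 and -0.09) and Ndufv3 (-0.13 and -0.17) did not pass the test in either arm. The NADH-binding core subunit Ndufv1 rose in LacZ by 0.25 ± 0.07 and did not pass in iCre (0.13 ± 0.07). Of the 13 members that rose in LacZ alone, 9 belong to complex I: Ndufa5, Ndufa7, Ndufa9, Ndufa10, Ndufb3, Ndufb4, Ndufb6, Ndufb10 and Ndufv1. Their difference between arms did not pass a test of its own, as given for the interaction below.

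Complex II, succinate dehydrogenase, split by subunit. Sdhb, the iron-sulphur subunit, rose: its LacZ libraries held 50.1, 42.6, 47.8 and 45.5 CPM in SS and 59.1, 81.0, 69.3 and 67.3 CPM with TGFb. In iCre it held 48.1, 46.5, 56.6 and 49.5 CPM in SS and 74.3, 64.8, 69.6 and 67.5 CPM with TGFb. The groups were apart in both arms, with log2 fold changes of 0.57 ± 0.09 and 0.46 ± 0.09 and adjusted p of 5.5e-06 and 0.000125 in edgeR. The membrane anchor Sdhd rose in LacZ (0.28 ± 0.07, adjusted p = 0.00202 in edgeR) and not in iCre (0.16 ± 0.07, adjusted p = 0.0715 in edgeR), and in iCre it turned to -0.06 with total-count scaling. The other anchor, Sdhc, had 0.12 ± 0.09 and 0.03 ± 0.09. The catalytic flavoprotein Sdha had -0.03 ± 0.06 in both arms, with 197 ± 5.48 CPM (SD, n = 4) in LacZ SS and 193 ± 9.53 CPM with TGFb.

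In complex III, the cytochrome bc1 complex, all 8 nuclear members rose with TGFb in LacZ and 7 in iCre (23.4% and 20.2% of all genes). The medians of the 8 were 0.47 and 0.41. Uqcrq (ENSMUSG00000044894, chromosome 11, 53427922 to 53430831), a small subunit that binds cytochrome b, changed most. Its LacZ libraries held 33.5, 33.2, 44.7 and 30.4 CPM in SS and 86.6, 113, 90.8 and 76.9 CPM with TGFb. Its iCre libraries held 39.9, 31.7, 48.3 and 30.3 CPM in SS and 101, 85.4, 91.2 and 63.9 CPM with TGFb. In both arms the lowest TGFb library lay above the highest SS library, and the log2 fold changes were 1.38 ± 0.19 and 1.18 ± 0.18, with adjusted p of 1.25e-06 and 1.54e-05 in edgeR. The core proteins Uqcrc1 (0.39 and 0.29) and Uqcrc2 (0.40 and 0.41) and the Rieske iron-sulphur protein Uqcrfs1 (0.34 and 0.26) rose by less, in both arms. Uqcrh, the hinge protein that docks cytochrome c1, rose in LacZ (0.25 ± 0.08) and had 0.01 ± 0.08 in iCre.

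In complex IV, cytochrome c oxidase, 9 of 15 nuclear members rose with TGFb in LacZ and 7 in iCre (23.4% and 20.2% of all genes). The medians of the 15 were 0.45 and 0.30. Cox5a (ENSMUSG00000000088, chromosome 9, 57521274 to 57532426), a subunit on the matrix side, measured 31.04, 31.9, 33.7 and 35.1 CPM in LacZ SS and 60.2, 80.9, 64.1 and 49.7 CPM with TGFb. The iCre levels were 33.0, 30.4, 35.5 and 32.3 CPM in SS and 58.6, 51.4, 61.4 and 45.3 CPM with TGFb. The groups were apart, with log2 fold changes of 0.95 ± 0.11 and 0.72 ± 0.11 and adjusted p of 1.21e-07 and 1e-05 in edgeR. Cox6a1 (ENSMUSG00000041697, chromosome 5, 115345642 to 115348981), the widely expressed form of a regulatory subunit, rose by 0.87 ± 0.12 and 0.75 ± 0.12. Its LacZ levels of 73.1 to 98.2 CPM in SS and 139 to 177 CPM with TGFb did not overlap. In iCre it measured 67.5 to 91.6 CPM in SS and 131 to 140 CPM with TGFb, again apart. Cox7b (0.71 and 0.59), Cox7a2 (0.71 and 0.53), Cox5b (0.59 and 0.51) and Cox6b1 (0.57 and 0.45) also rose in both arms, and Cox6c (0.05 and -0.01) did not pass in either.

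The complex IV member that fell was Cox7a2l (ENSMUSG00000024248, chromosome 17, 83501918 to 83517330), a Cox7a family member known for joining complexes III and IV into supercomplexes. It measured 152, 158, 157 and 127 CPM in iCre SS and 126, 110, 125 and 98.2 CPM with TGFb, where the groups did not overlap, and it fell by 0.37 ± 0.12 on the log2 scale with an adjusted p of 0.0187 in edgeR. Without iCre TGFb number 2 or number 4 the call was lost, with adjusted p of up to 0.0643. In LacZ it measured 167, 141, 163 and 127 CPM in SS and 133, 151, 128 and 84.0 CPM with TGFb, with overlap, and a log2 fold change of -0.27 ± 0.12 (adjusted p = 0.0765 in edgeR, and 0.0087 with the replicate block).

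In complex V, the ATP synthase, 14 of 17 nuclear members rose with TGFb in each arm (23.4% and 20.2% of all genes). The medians of the 17 were 0.44 and 0.34. Atp5g1 (ENSMUSG00000006057, chromosome 11, 96068852 to 96075670), which codes for the ring subunit c of the rotor, had the largest log2 fold change among the members that passed the test, in both arms. It measured 34.9, 30.7, 42.1 and 32.8 CPM in LacZ SS and 97.0, 133, 113 and 98.4 CPM with TGFb. In iCre it measured 35.6, 34.2, 43.3 and 34.2 CPM in SS and 109, 105, 91.2 and 79.9 CPM with TGFb. Every TGFb library lay far above every SS library, and the increase was 3.14-fold in LacZ (log2 1.65 ± 0.13, adjusted p = 5.33e-10) and 2.62-fold in iCre (log2 1.39 ± 0.13, adjusted p = 1.31e-08) in edgeR.

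Atp5b (ENSMUSG00000025393, chromosome 10, 128083273 to 128090391), the catalytic beta subunit, rose by 0.84 ± 0.10 in LacZ and 0.69 ± 0.10 in iCre. It measured 476, 439, 555 and 449 CPM in LacZ SS and 821, 925, 886 and 816 CPM with TGFb, so the groups were apart. The iCre libraries held 518, 454, 576 and 490 CPM in SS and 901, 822, 834 and 731 CPM with TGFb, again without overlap. Its partner in the catalytic head, the alpha subunit Atp5a1, rose by less (0.34 ± 0.07 and 0.29 ± 0.07), and the central stalk subunit gamma, Atp5c1, did not pass (0.15 ± 0.07 in both). Atp5c1 passed with the replicate block in both arms (adjusted p = 0.033 and 0.04 in edgeR). The 1 member that fell in LacZ was Atp5s (ENSMUSG00000054894, chromosome 12, 69724950 to 69744660), the coupling factor B, by 0.57 ± 0.17 on the log2 scale with an adjusted p of 0.00848 in edgeR. It measured 5.6, 7.58, 7.58 and 6.43 CPM in SS and 4.48, 5.37, 5.30 and 3.11 CPM with TGFb, and in iCre it had -0.41 ± 0.17 (adjusted p = 0.0625 in edgeR).

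**Figure D3:**
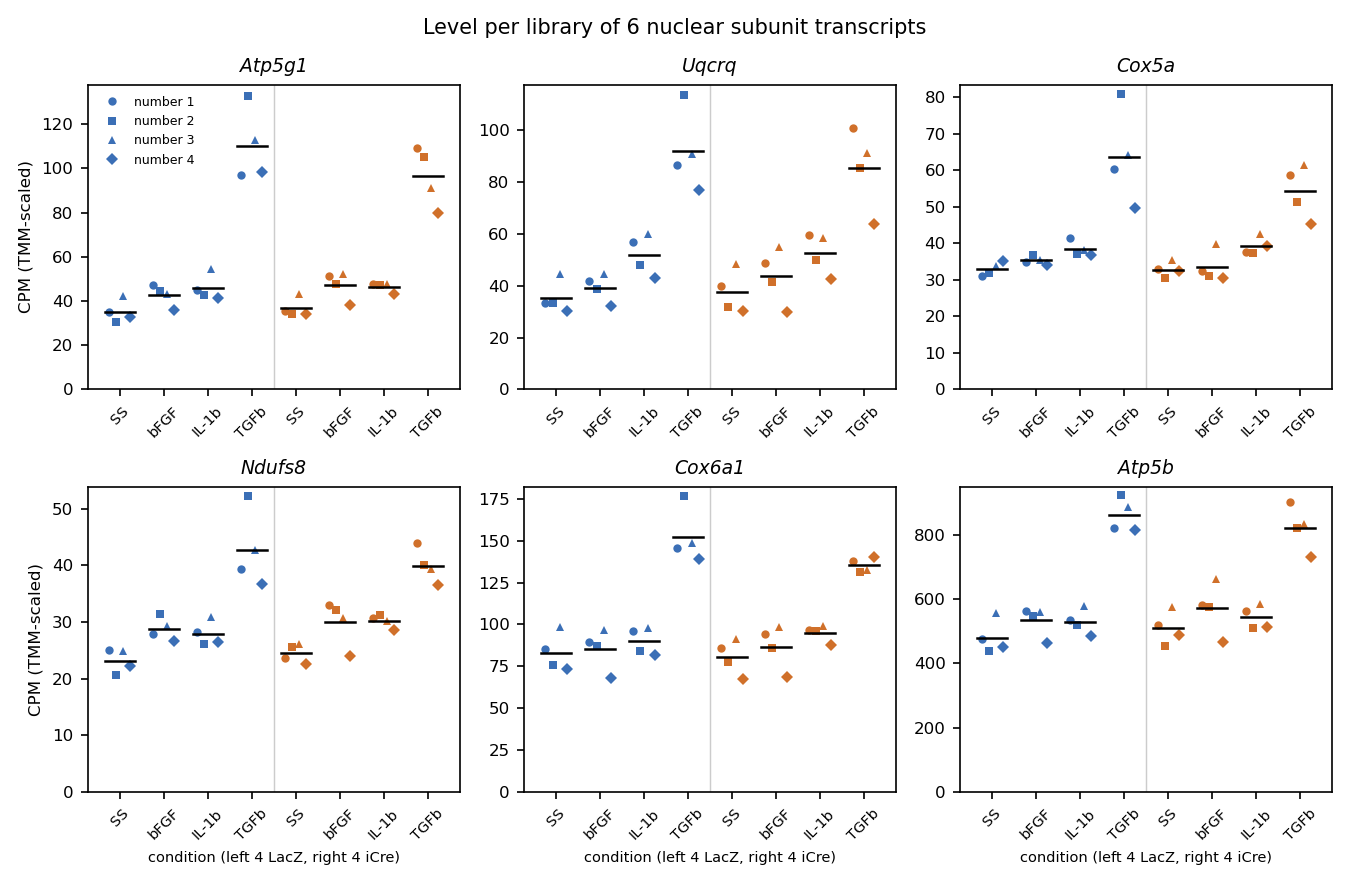
Level of 6 nuclear subunit transcripts in each of the 32 libraries (vertical axis, TMM-scaled CPM, from 0) by condition (horizontal axis), with LacZ in blue on the left and iCre in orange on the right of each panel. Marker shape gives the replicate number and the bar is the mean of 4 libraries. For each of the 6 genes, the TGFb libraries of an arm lie above its SS libraries, and the LacZ TGFb library number 2 is the highest of its group.

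Several subunits have alternative forms, and their shares were compared after dividing CPM by the length of the annotated exons. Among the genes Atp5g1, Atp5g2 and Atp5g3, which code for the same mature subunit c, the Atp5g1 share was 8.39% ± 0.778 (SD, n = 4) in LacZ SS and 17.3% ± 0.794 with TGFb. In iCre it was 8.40% ± 0.965 and 15.7% ± 1.52. The Atp5g2 share went from 40.4% ± 0.296 to 30.4% ± 2.12 in LacZ and from 39.2% ± 3.02 to 32.3% ± 1.74 in iCre, while Atp5g3 stayed between 51.2% and 52.4% in the means of these 4 groups. Divided by the longest transcript instead, the Atp5g1 share was 3.83% in LacZ SS and 8.27% with TGFb. Atp5g3 rose (0.64 ± 0.08 and 0.47 ± 0.08), and Atp5g2 did not pass (0.19 ± 0.08 and 0.20 ± 0.08). Of their 50-base words, 38.3% in Atp5g2 and 11.1% in Atp5g1 also occur in other annotated transcripts, mostly pseudogenes, so reads could be split or lost there.

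In the Cox7a set, Cox7a2 made up 24.8% ± 1.57 of the per-length total in LacZ SS and 39.8% ± 4.49 with TGFb, and in iCre 25.4% ± 2.10 and 38.9% ± 2.12. Cox7a2l took most of the rest, with 74.5% ± 1.35 and 59.9% ± 4.55 in LacZ. The muscle form Cox7a1 stayed under 1% in each of these group means. Cox6b2, the testis form, went from 6.09% ± 2.07 of the Cox6b set in LacZ SS to 1.85% ± 1.11 with TGFb. Its level was 6.34, 10.3, 5.97 and 10.4 CPM in LacZ SS and 1.88, 5.27, 1.68 and 5.67 CPM with TGFb, lower in every same-numbered pair. Its log2 fold change of -1.18 ± 0.51 did not pass in edgeR (adjusted p = 0.06, and 3.4e-06 with the replicate block), and iCre gave -1.19 ± 0.51 (0.0686, and 2.7e-05 with the block).

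The remaining alternative forms were scarce or uneven. Cox4i2, the oxygen-regulated form of subunit 4, measured 0.32 to 3.21 CPM in LacZ SS and 0.21 to 0.74 CPM with TGFb, against 181 to 211 and 199 to 283 CPM for the common form Cox4i1. Cox4i2 had -2.01 ± 0.87 in LacZ (adjusted p = 0.0599 in edgeR, and 0.0079 with the block) and -2.08 ± 0.88 in iCre (0.0642, and 0.0031 with the block). Cox6a2, the heart and skeletal muscle form, measured 0.11 to 1.15 CPM in LacZ SS and 0.42 to 3.003 CPM with TGFb, with 2.08 ± 0.99 in LacZ (adjusted p = 0.088 in edgeR, and 6.8e-05 with the block) and 1.77 ± 0.96 in iCre (0.15, and 0.00028 with the block). Cox4i1 rose in LacZ by 0.22 ± 0.08 but not in iCre (0.08 ± 0.08), where total-count scaling turned it to -0.14. The LacZ call for Cox4i1 was lost in 15 of 32 fits that each left out 1 library, with adjusted p of up to 0.2611 in edgeR. Among these, the fit without LacZ TGFb number 2 gave a LacZ value of 0.10.

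Ndufa4l2, the hypoxia-linked relative of Ndufa4, differed widely between libraries of a group. It measured 62.4, 45.6, 76.3 and 9.16 CPM in LacZ SS and 65.1, 37.8, 76.0 and 5.73 CPM in iCre SS, so number 4 was lowest in both. With TGFb it measured 18.7 to 34.5 CPM in LacZ and 21.4 to 44.1 CPM in iCre, and with IL-1b 24.6 to 153 and 15.9 to 169 CPM. None of its changes passed the test in edgeR, with TGFb at -0.98 ± 0.75 and -0.65 ± 0.75, and IL-1b at 0.96 ± 0.75 and 1.17 ± 0.75. Ndufa4 itself rose with TGFb by 0.56 ± 0.08 and 0.51 ± 0.08. Of the Cox8 genes, the common form Cox8a rose in LacZ (0.34 ± 0.08) and not in iCre (0.19 ± 0.08), and the muscle form Cox8b and the testis form Cox8c were under the count rule.

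Promoters of the members, whether or not they changed, were searched for the sites of factors known to act on respiratory genes, on both strands of the 300 bases from 250 before to 50 after each start site (RefSeq, GRCm38.p6). Of the 95 members, 65 had a promoter in the table, and 17492 genes served for comparison. The NRF1 motif occurred in 17 of 65 (26.2%, against 7.17% of all promoters), the ETS motif CCGGAAG of the GABP factor in 16 (24.6% against 12.9%), and the SP1 motif GGGCGGG in 21 (32.3% against 36.9%). The YY1 motif occurred in 4 (6.15% against 1.63%) and the ESRRA motif TCAAGGTCA in 2 (3.08% against 0.377%). Stretches from 3 promoters show the contrast between the largest riser Atp5g1, without an NRF1 match in the window, its relative Atp5g2, with 1 match and no call, and Cox6a1, with 2 matches and an increase. Capitals mark the NRF1 matches, and each line runs 5′ to 3′ along the gene's strand.
Atp5g1, chr11:96075782-96075881, reverse strand: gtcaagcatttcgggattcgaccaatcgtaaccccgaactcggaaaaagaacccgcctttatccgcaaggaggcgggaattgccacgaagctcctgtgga
Atp5g2, chr15:102671080-102671179, reverse strand: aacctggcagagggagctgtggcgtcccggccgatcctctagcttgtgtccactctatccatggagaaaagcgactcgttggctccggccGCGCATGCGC
Cox6a1, chr5:115349066-115349165, reverse strand: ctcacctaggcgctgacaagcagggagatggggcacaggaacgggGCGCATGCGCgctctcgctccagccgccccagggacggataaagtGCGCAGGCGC

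These stretches start 250, 132 and 207 bases before the start site. Of members with an NRF1 match 13 of 17 rose with TGFb in LacZ, against 39 of 48 without (medians 0.44 and 0.41), and in iCre 10 of 17 against 30 of 48 (0.29 and 0.30). With an ETS match 16 of 16 rose in LacZ, against 36 of 49 without (0.46 and 0.40), and in iCre 12 of 16 against 28 of 49 (0.36 and 0.29). These are descriptions of letters in a window, and the difference between the classes was not tested.

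The 13 mitochondrially encoded members showed no change that passed with TGFb. In edgeR 0 of 13 were called in either arm (0 and 1 at an unadjusted p under 0.05), DESeq2 called 0 and 1, and the block called 1 and 4, all of them lower. Their medians were -0.18 in LacZ and -0.25 in iCre, with a median SE of 0.24 beside 0.10 for the nuclear members, so a change of the nuclear size would be harder to detect. mt-Nd5 (chromosome M, 11742 to 13565), a proton-pumping subunit of complex I, measured 949, 973, 1075 and 1015 CPM in LacZ SS and 771, 609, 1011 and 719 CPM with TGFb. Its iCre levels were 1191, 932, 1006 and 1302 CPM in SS and 753, 654, 921 and 939 CPM with TGFb. Each TGFb library was lower than the SS library of its number although the groups overlapped, with log2 fold changes of -0.37 ± 0.18 and -0.44 ± 0.18 (adjusted p = 0.094 and 0.0538 in edgeR, and 0.0078 and 0.0026 with the block).

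The catalytic oxidase subunit mt-Co1 had -0.26 ± 0.18 and -0.31 ± 0.18, mt-Nd4 had -0.25 ± 0.18 and -0.37 ± 0.18, and mt-Nd4l had -0.69 ± 0.44 and -0.86 ± 0.43. In iCre these 3 passed only with the block (adjusted p = 0.021, 0.021 and 0.015 in edgeR). The other complex I genes gave 0.21 and -0.07 for mt-Nd1, -0.03 and -0.25 for mt-Nd2, 0.17 and 0.06 for mt-Nd3, and -0.14 and -0.34 for mt-Nd6. Cytochrome b, mt-Cytb, had 0.05 and -0.14, mt-Co2 had -0.18 and -0.30, mt-Co3 had -0.02 and 0.00, mt-Atp6 had -0.23 and -0.20, and mt-Atp8 had -0.21 and -0.16.

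As a share of all counts, the mitochondrially encoded members took 0.661% ± 0.0531 (SD, n = 4) in LacZ SS and 0.604% ± 0.110 after bFGF. IL-1b gave 0.569% ± 0.119 and TGFb 0.517% ± 0.0667. In iCre the shares were 0.758% ± 0.180, 0.616% ± 0.190, 0.598% ± 0.192 and 0.537% ± 0.134 in the same order. The iCre number 4 libraries were the highest of each iCre group, up to 1.02% in SS, and within an arm the shares of bFGF and IL-1b overlapped with those of SS and TGFb. Those of TGFb were below those of SS without overlap in LacZ (0.480% to 0.617% against 0.623% to 0.736%) and with overlap in iCre, and lower in all 4 same-numbered pairs of each arm. The nuclear members took 0.515% ± 0.0206 in LacZ SS and 0.603% ± 0.0790 with TGFb, and 0.547% ± 0.0297 and 0.582% ± 0.0226 in iCre. Libraries were made from polyadenylated RNA, and these shares rest on the transcripts that this selection retained.

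**Figure D4:**
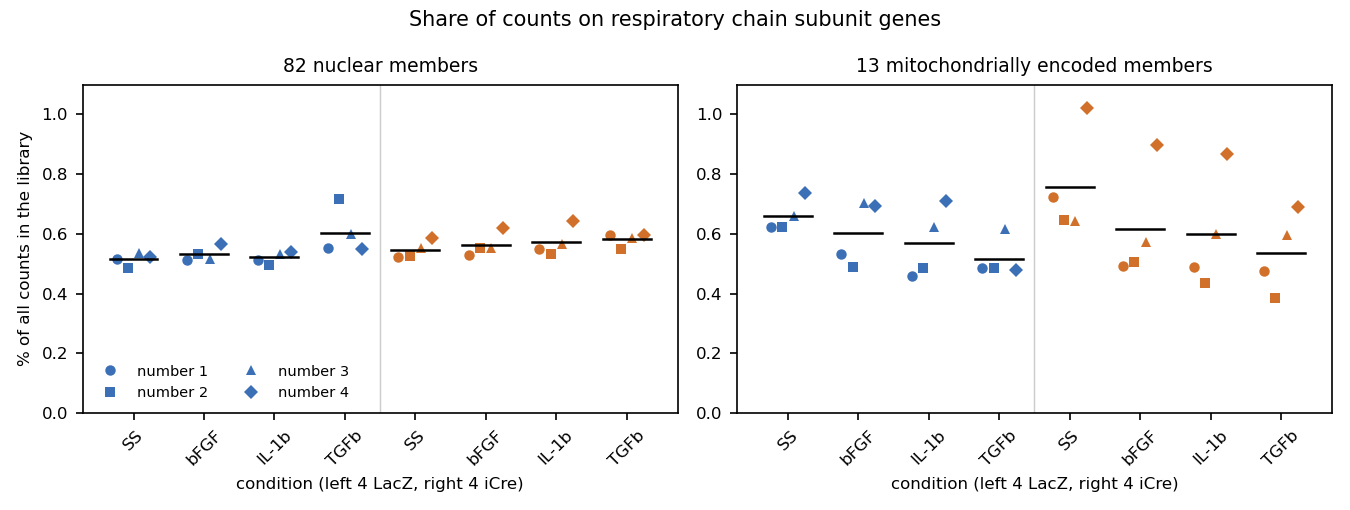
Percentage of each library's counts on the 82 nuclear and the 13 mitochondrially encoded subunit genes (vertical axis, from 0) by condition (horizontal axis), with LacZ in blue and iCre in orange. Marker shape gives the replicate number and the bar is the mean of 4 libraries. The nuclear share is highest in LacZ TGFb number 2 (0.717%), and the mitochondrial share is highest in iCre SS number 4 (1.02%).

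Levels of the mitochondrially encoded genes differed widely, also among those other than mt-Nd6, which share the forward strand and its polycistronic transcripts. Per kilobase, mt-Co1 had 1802 ± 94.4 CPM (SD, n = 4) in LacZ SS, mt-Cytb 1039 ± 74.5, mt-Nd5 550.0 ± 30.2, mt-Nd1 495 ± 47.3, mt-Nd2 427 ± 42.3 and mt-Nd4 306 ± 15.8. At the other end, mt-Nd6 had 32.1 ± 4.64, mt-Co2 15.3 ± 3.63, mt-Atp8 14.8 ± 3.01, mt-Atp6 10.5 ± 0.830, mt-Co3 9.56 ± 1.36, mt-Nd4l 3.23 ± 0.992 and mt-Nd3 2.36 ± 0.711 CPM per kilobase. Some neighbours in the order of level did not differ beyond their ranges. These were mt-Nd5 and mt-Nd1, mt-Nd1 and mt-Nd2, and mt-Nd4l and mt-Nd3. The same held for mt-Co2 and mt-Atp8, mt-Atp8 and mt-Atp6, and mt-Atp6 and mt-Co3. The nuclear members had a median of 30.1 CPM per kilobase (0.711 to 132).

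Several of these genes have near-identical copies in the nuclear genome. A run of 7 pseudogenes on chromosome 1 repeats the mitochondrial sequence from mt-Co1 to mt-Nd4. Of all 50-base words, 100% in mt-Co2, 99.9% in mt-Co3, 99.5% in mt-Atp6, 98.8% in mt-Nd4l and 98.0% in mt-Nd3 also occur in another annotated transcript. The shares were 62.2% in mt-Nd4, 51.1% in mt-Co1, 8.19% in mt-Nd2, 7.61% in mt-Nd5 and 0% in mt-Nd1, mt-Nd6, mt-Cytb and mt-Atp8. The median level of the 5 genes above 90% was 9.56 CPM per kilobase, and that of the 6 genes under 10% was 461. mt-Atp8 and mt-Nd6 share no words with annotated transcripts and were low as well, while mt-Co1 and mt-Nd4 share over 50% and were high. However, mt-Atp8, among the 6 genes under 10%, lies between mt-Co2 and mt-Atp6, within the span that the chromosome 1 run repeats. Since only annotated transcripts were searched, its 0% does not show that it lacks a copy there. The part of the copies in these levels was not tested. Stretches of mt-Co3, which shares nearly all its words, and mt-Nd3, the lowest gene, show how little separates a gene from its copy, with capitals at the only difference.
mt-Co3, chrM:8968-9027, forward strand: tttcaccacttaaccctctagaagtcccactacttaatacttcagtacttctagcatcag
Gm28437, chr1:24613551-24613610, reverse strand: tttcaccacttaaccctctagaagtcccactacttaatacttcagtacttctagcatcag
mt-Nd3, chrM:9459-9518, forward strand: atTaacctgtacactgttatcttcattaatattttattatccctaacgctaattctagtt
Gm28438, chr1:24613060-24613119, reverse strand: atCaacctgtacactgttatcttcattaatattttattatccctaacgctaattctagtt

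Over the whole alignment, Gm28437 matched mt-Co3 at 783 of 783 bases and Gm28438 matched mt-Nd3 at 344 of 345. The 7 copies received 24732 counts over 32 libraries, among them 4197 on Gm28437 beside 6617 on mt-Co3. How reads that fit both places were counted is not given in the sources used here, so the levels of the genes with shared sequence, and their responses, are uncertain. Among the nuclear members, 19 share over 10% of their 50-base words with other transcripts, led by Atp5o (41.6%), Atp5g2 (38.3%), Ndufb6 (31.6%) and Ndufa13 (28.5%), and the same reserve holds for them.

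**Figure D5:**
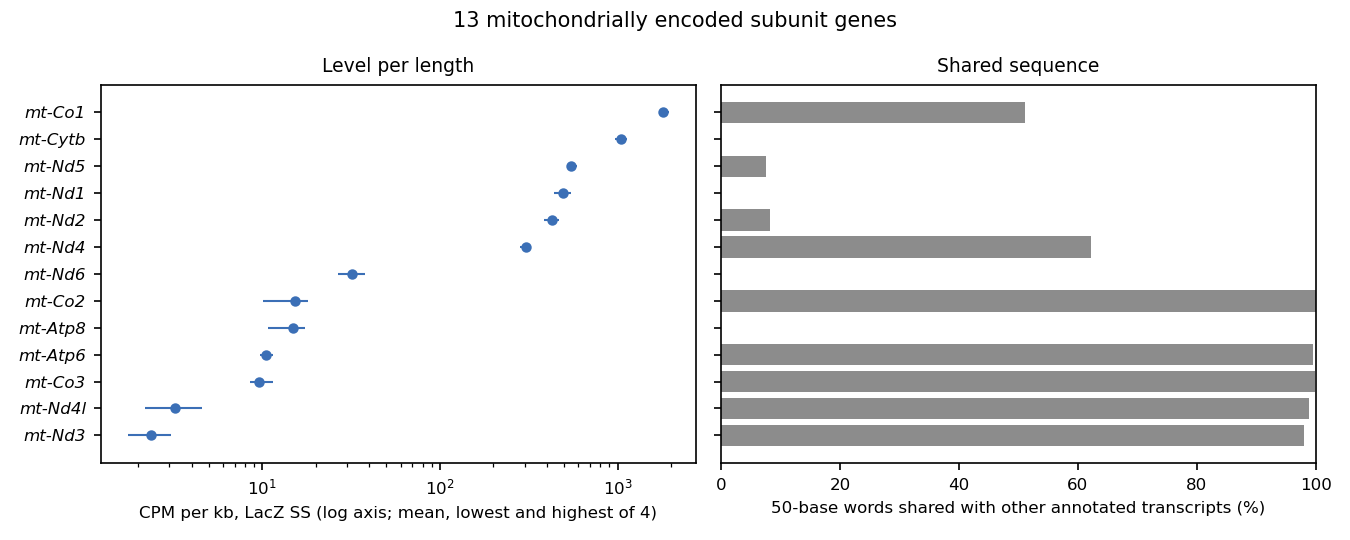
Left, level of each mitochondrially encoded subunit gene in LacZ SS (horizontal log axis, CPM per kilobase, with the mean and the lowest and highest of 4 libraries). Right, percentage of its 50-base words that also occur in other annotated transcripts. The 5 genes with 98.0% to 100% shared words lie between 2.36 and 15.3 CPM per kilobase, while mt-Co1 reaches 1802.

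Genes that serve the chain but lie outside the symbol rule were followed in lists of assembly factors, carriers, mitochondrial RNA handling, mitochondrial DNA upkeep and transcriptional regulators. With TGFb, 25 of 47 assembly factors tested rose and 1 fell in LacZ, and 17 rose and 1 fell in iCre, with medians of 0.33 and 0.24, beside 23.4% and 20.2% of all genes that rose. Of the complex IV assembly factors, which add haem and copper and place subunits in the membrane, 10 of 18 rose in LacZ and 6 in iCre. Cox18, which helps to insert mt-Co2 into the membrane, had 1.32 ± 0.13 in LacZ (adjusted p = 7.73e-09 in edgeR) and 1.32 ± 0.12 in iCre. Of 16 complex I assembly factors, 10 rose in LacZ and 7 in iCre, led by Ndufaf4 (1.28 and 1.15) and Tmem126a (1.11 and 1.00), while Tmem126b fell in both arms (-0.59 and -0.65). Of the factors for complexes II, III and V, 1 of 4, 2 of 6 and 2 of 3 rose in LacZ, and 1, 2 and 1 in iCre, lists too small to read against the share over all genes. Among them were Sdhaf2 (0.27 and 0.22), Ttc19 (0.92 and 0.81) and Tmem70 (0.88 and 0.77).

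Of the 6 carriers and subunits with other names, 4 rose with TGFb in both arms. Cycs, the cytochrome c that carries electrons from complex III to complex IV, went from a mean of 21.2 to 76.4 CPM in LacZ (1.85 ± 0.21) and from 24.4 to 67.7 CPM in iCre (1.47 ± 0.21). Cyc1, the cytochrome c1 of complex III, rose by 0.72 and 0.55, Usmg5, a small ATP synthase subunit, by 0.99 and 0.85, and Higd1a, a hypoxia-induced partner of complex IV, by 1.39 and 1.22. Of 19 genes for mitochondrial transcription and RNA handling, 12 rose and 1 fell in LacZ, and 7 rose and 0 fell in iCre in edgeR, with medians of 0.36 and 0.26. Tbrg4 (1.17 and 1.00), Fastk (0.85 and 0.71) and Slirp (0.75 and 0.61), which act on the stability of mitochondrial transcripts, rose in both arms. Of 7 genes for the upkeep of mitochondrial DNA, 2 rose and 2 fell in LacZ, and 0 rose and 2 fell in iCre in edgeR. Over all genes tested, 23.4% rose and 22.9% fell with TGFb in LacZ, and 20.2% and 18.1% in iCre. The lists of 6 and 7 genes are too small to read against these shares.

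Among 10 regulators of respiratory genes, 4 rose and 1 fell with TGFb in LacZ, and 4 rose and 2 fell in iCre. The shares over all genes were 23.4% and 22.9% in LacZ, and 20.2% and 18.1% in iCre, and this list is too small to read against them. Myc went from 13.5 to 47.6 CPM in LacZ (1.82 and 1.42 on the log2 scale), and Pprc1, a coactivator of the PGC-1 family, from 41.4 to 85.8 CPM (1.05 and 0.95). Ppargc1a, the PGC-1alpha coactivator, fell from 1.05 to 0.0338 CPM in LacZ and from 1.65 to 0.141 CPM in iCre, where Esrra, a nuclear receptor that PGC-1 coactivators bind, also fell (-0.23). With IL-1b, 5 of 47 assembly factors rose in LacZ and 4 in iCre, about the share over all genes (11.1% and 8.88%). Cycs (0.83 and 0.66) and Higd1a (0.97 and 1.12) rose in both arms. With bFGF the smallest adjusted p in these lists was 0.0633 in edgeR, for Cox18 in iCre (0.43 ± 0.12).

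IL-1b moved few members. In LacZ 4 of 95 rose (4.21%, against 11.1% of all genes tested) and 0 fell in edgeR (8.13% of all genes), and in iCre 5 rose (5.26%, against 8.88%) and 0 fell (6.84%). Among other protein-coding genes that averaged 10 CPM or more, 19.8% and 16.6% rose where the longest transcript had at most 1000 bases, and 19.7% and 18.5% where it had up to 2000. In all, 16 and 30 members had an unadjusted p under 0.05, and DESeq2 called 6 increases in LacZ and 11 in iCre. Cox7b, a small oxidase subunit, rose in both arms. It measured 39.1, 36.6, 45.7 and 39.1 CPM in LacZ SS and 48.2, 45.1, 59.1 and 46.9 CPM with IL-1b, higher in every same-numbered pair although the groups overlapped. In iCre it measured 37.1, 38.3, 44.2 and 43.1 CPM in SS and 50.02, 46.9, 50.5 and 56.1 CPM with IL-1b, without overlap. The log2 fold changes were 0.31 ± 0.09 and 0.32 ± 0.09, with adjusted p of 0.019 and 0.0181 in edgeR.

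In LacZ, Uqcrq (0.55 ± 0.18), Atp5g1 (0.39 ± 0.13) and Ndufs3 (0.21 ± 0.07), a core subunit of complex I, rose as well. In iCre, Uqcrb (0.32 ± 0.11), a complex III subunit, and the complex I subunits Ndufa2 (0.31 ± 0.10), Ndufs8 (0.30 ± 0.10) and Ndufc2 (0.26 ± 0.09) rose. The Uqcrb call (adjusted p = 0.0499 in edgeR) was lost in 24 of 32 fits that each left out 1 library, with adjusted p of up to 0.1615, and the other calls with IL-1b in 3 to 7 of 32. Uqcrq measured 43.1 to 59.99 CPM with IL-1b and 30.4 to 44.7 CPM in SS in LacZ, so the groups overlapped slightly. The nuclear medians were 0.11 and 0.15, and the mitochondrial medians -0.18 and -0.23. With the replicate block 9 members rose and 2 fell in LacZ, and 19 rose and 5 fell in iCre. Leaving out single libraries moved the number that rose between 0 and 8 in LacZ and between 0 and 15 in iCre. In LacZ it was 0 without IL-1b number 3, SS number 1 or SS number 2, 1 without IL-1b number 1, 2 without SS number 4, and 8 without TGFb number 2. In iCre it was 0 without SS number 2, 1 without SS number 1, IL-1b number 1 or IL-1b number 3, 2 without LacZ IL-1b number 1, and 3 without SS number 4 or IL-1b number 2. It was 8 without LacZ TGFb number 4, 9 without LacZ SS number 4, 11 without iCre bFGF number 4, 14 without iCre SS number 3 and 15 without LacZ TGFb number 2.

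bFGF, which the cells had also received during expansion, changed no member in edgeR. In LacZ 0 rose and 0 fell (1.64% and 0.919% of all genes), and in iCre 0 rose and 0 fell (1.44% and 0.752%). In the length classes up to 1000 and up to 2000 bases, 1.21% and 1.53% of other protein-coding genes rose in LacZ, and 1.62% of each in iCre. In all, 2 and 4 members had an unadjusted p under 0.05, and DESeq2 called 1 (Ndufs8 in LacZ) and 0. The smallest p belonged to Ndufs8 in LacZ, at 27.9, 31.4, 29.3 and 26.7 CPM with bFGF beside 20.7 to 24.96 CPM in SS, with 0.31 ± 0.10 (adjusted p = 0.0945 in edgeR, and 0.0171 with the block). In iCre, Atp5g1 had 0.36 ± 0.13 (adjusted p = 0.128 in edgeR, and 0.0198 with the block), Ndufs8 had 0.29 ± 0.10 (0.128 and 0.0295), and mt-Nd5 had -0.38 ± 0.18 (0.278 and 0.0328). The nuclear medians were 0.05 in both arms, and the mitochondrial medians -0.18 and -0.35. The TGFb, IL-1b and bFGF comparisons of an arm share their 4 SS libraries.

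No member differed detectably between iCre and LacZ cells within a condition. Between iCre and LacZ, 0 of 95 members passed in SS, bFGF, IL-1b or TGFb in edgeR (0.0% of all genes in each), with 0, 0, 3 and 4 at an unadjusted p under 0.05, and DESeq2 called 0 in each. Averaged over the 4 conditions 0 passed (0.107% of all genes), with 6 at an unadjusted p under 0.05, while DESeq2 called 1. That member was Ndufab1 (ENSMUSG00000030869, chromosome 7, 122085403 to 122101886), at -0.21 ± 0.05 with an adjusted p of 0.0858 in edgeR, and 0.0176 with the replicate block. With TGFb it measured 43.3, 55.1, 50.7 and 38.9 CPM in LacZ and 40.3, 35.4, 37.3 and 28.5 CPM in iCre. It was lower with iCre in 14 of 16 pairs matched by condition and number. Such one-sided pairs were not particular to it, since Sdhc was higher with iCre in 15 of 16 pairs and 10 other members in 14 of 16, without passing. Its TGFb value alone was -0.41 ± 0.10 (adjusted p = 0.738 in edgeR).

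Within single conditions the smallest p belonged to Ndufs1 in SS (0.14 ± 0.07), Ndufb9 with bFGF (0.16 ± 0.08) and Ndufv1 with IL-1b (0.20 ± 0.07). The next members by p in the average were Ndufv1 (0.10 ± 0.03, adjusted p = 0.39 in edgeR) and Atp5a1 (0.09 ± 0.03, adjusted p = 0.449 in edgeR). The difference between iCre and LacZ in the response to a stimulus was tested as an interaction, and 0 members passed for TGFb, IL-1b or bFGF in edgeR (0.0% of all genes in each) or in DESeq2. For TGFb the members' median difference was -0.12, and 1 member had an unadjusted p under 0.05, against 0 for IL-1b and 0 for bFGF. That was Uqcrh (-0.23 ± 0.11, unadjusted p = 0.0454, adjusted p = 1.0 in edgeR). The larger number of increases in LacZ than in iCre is thus not a tested difference. Between same-numbered TGFb libraries, the nuclear median of iCre against LacZ was 0.14, -0.38, -0.03 and 0.02 for numbers 1 to 4. In number 2, whose LacZ library had the highest nuclear share, 80 of 82 nuclear members were lower with iCre.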

How the data were processed

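Polyadenylated RNA from 32 libraries of cardiac fibroblasts was isolated with the Qiagen RNeasy Micro kit and made into libraries with the NEBNext Ultra II kit, per the labels' protocols. The authors deposited 1 table of raw counts per gene for 55414 gene IDs, with every column tied to a sample (0 columns without one). FastQC 0.10.1, HTSeq 0.10.0 and the builds mm10 and GRCm38 are named per the submitters' processing notes. The aligner, the annotation release, the use of strand and the treatment of reads that fit several genes were not given in the sources used here. Gene names, positions and lengths came from GENCODE M21 (GRCm38), which held 52081 of the IDs with 99.75% of the counts.

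Groups followed the titles. Genes were filtered with filterByExpr by group and scaled with TMM factors, and 16760 were tested in 1 model of 8 groups with edgeR 4.0.16 (glmQLFit with robust estimation, glmQLFTest, two-sided, R 4.3.3 with limma 3.58.1). Benjamini-Hochberg adjustment ran over all 16760 genes with a threshold of 0.05. Each SE of a log2 fold change is its absolute value divided by the square root of the F value of its edgeR test. It thus restates the test and is not a separate estimate. The procedure was also run on simulated counts, drawn independently for each library, with a small set of genes changed in LacZ TGFb. That run does not cover correlated libraries or a response as broad as that to TGFb. Alternatives were DESeq2 1.42.0, RLE factors, no filter, total counts as the only scaling, scaling without mitochondrial genes, the replicate block, a condition-and-number block, sums over conditions, each library or all number 4 libraries left out, and other lengths. Deviations from the group means correlated in 40 of 40 same-numbered pairs of libraries (0.153 to 0.857). Differently numbered libraries were not compared, so these values cannot show that the numbers pair the libraries. The labels do not say what a number marks, and the pairing by number is an assumption.

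CPM values are TMM-scaled, and per-length levels divide them by the length of all annotated exons. Tables and plots used Python 3.11.15, pandas 2.3.3 and matplotlib 3.10.9. The members and lists were chosen with earlier results of these data known. In each stimulus comparison up to 5 members per direction with the largest change among those that passed were described in full. Added to them were the members with the smallest p between arms, the mitochondrial, Sdh and isoform sets, and up to 3 genes of each further list by p. Other members stand as examples chosen after their values were seen, as do Tmem126b, Ppargc1a, Esrra and the comparisons by length class (mean of at least 10 CPM) and by shared 50-base words. An overlap with other transcripts was counted on exact words of annotated transcripts only. The number of counts in a library limits the precision of low members such as Cox7a1 (335 counts in all libraries), mt-Nd4l (625) and mt-Nd3 (734).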

Additional observations from a re-analysis of the deposited data

Results flagged for a closer look

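Within groups of 4, a single library stood apart from the other 3 in 5 of 80 groups examined, and chance gives about 1 in 20. These were the share of counts on mitochondrially encoded members in LacZ TGFb (number 3 highest, 0.617%), Atp5g1 in iCre SS (number 3 highest, 43.3 CPM) and in iCre IL-1b (number 4 lowest, 43.1 CPM), Atp5b in LacZ bFGF (number 4 lowest, 463 CPM), and Ndufab1 in iCre bFGF (number 2 lowest, 25.5 CPM).

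Signal was also present on features outside the members. Ndufb1-ps, classed as a long non-coding RNA and known as the mouse counterpart of a complex I subunit gene, had means of 12.8 CPM in LacZ SS, 20.1 in LacZ TGFb, 13.1 in iCre SS and 19.3 in iCre TGFb. The 7 copies of mitochondrial genes on chromosome 1 held 24732 counts over the 32 libraries.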

How the results depend on the processing

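Increases with TGFb numbered 58 to 66 of 95 members in LacZ and 44 to 55 in iCre over DESeq2, RLE factors, scaling without mitochondrial genes, no filter, the replicate block and the omission of the number 4 libraries, and 53 to 65 and 40 to 53 when single libraries were left out. Under total-count scaling they numbered 35 and 13, where 2553 and 1918 of all 16760 genes rose. Decreases with TGFb (1 in each arm) numbered 3 and 5 with DESeq2, 5 and 7 with the replicate block, 6 and 7 with total-count scaling, and 4 and 6 without the number 4 libraries. RLE factors gave 2 decreases in iCre. Leaving out single libraries gave 1 to 3 decreases in LacZ and 1 to 5 in iCre, with 5 without iCre TGFb number 4. The number was above 1 in 7 of 32 such fits for LacZ and in 23 of 32 for iCre.

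With IL-1b, increases in LacZ (4) numbered 1 with no filter, 2 with total-count scaling and 9 with the block. In iCre (5) they numbered 11 with DESeq2, 1 with no filter, 0 with total-count scaling, 19 with the block and 8 without the number 4 libraries. Decreases with IL-1b numbered 2 (LacZ) and 5 (iCre) with the block, and 1 in LacZ without the number 4 libraries. Single omissions gave 0 to 8 and 0 to 15 increases, and 0 to 2 decreases in iCre, with 2 without iCre IL-1b number 4. With bFGF, 1 member rose in LacZ with DESeq2, with the block or without the number 4 libraries. In iCre, 2 rose and 1 fell with the block, 2 rose without the number 4 libraries, and single omissions gave 0 to 2, with 2 without iCre bFGF number 4.

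Between iCre and LacZ on average, 1 member (Ndufab1) passed with DESeq2, the replicate block, the condition-and-number block or without the number 4 libraries, and 0 to 1 with single omissions (1 without LacZ TGFb number 4). Total-count scaling turned the sign of Cox4i1 (-0.14) and Sdhd (-0.062) with TGFb in iCre. The replicate block, which uses the pairing by number, changed no call among the genes named here other than those printed with its value and the counts above, which include the members Ndufa1, Ndufa13, Ndufa9, Ndufb4 and Cox8a with TGFb. Dividing by the longest transcript moved the level of 60 of 95 members by more than their spread. Why any of these values moved was not tested. Precision is lowest for members with few counts and for the mitochondrially encoded members, whose SE is larger.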
